A study of Mus musculus with 2 samples.

Results

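The genes described here are those by which leukocytes that live in skin are recognised on an expression array: 43 genes of Langerhans cells and MHC class II antigen presentation (11 genes), T cells (7 genes), macrophages (16 genes) and mast cells (4 genes), with 5 genes that mark leukocytes of every kind. They were taken from a list of names, and all 43 had a probe. They took up 54 of the 55676 probes measured and 43 of 34820 gene names. The arrays were 2-colour arrays, on which RNA of a control pup labelled with Cy3 (green) and RNA of a littermate labelled with Cy5 (red) compete for the same spots. Each of the 2 arrays held 1 pair of FVB/N littermates at postnatal day 4.5. The control carried K14-rtTA alone, and the other pup carried K14-rtTA and TRE-Sox11-FLAG. Both pups of a pair had doxycycline (Dox) for 12 h, so the activator and the drug were common to both groups and the SOX11 transgene was the difference between them. K14-rtTA is a transgene that makes the Dox-dependent activator in keratin 14 positive keratinocytes. The leukocytes named here are therefore neighbours of the induced cells, in an epidermal sheet that was lysed whole and not sorted. Its RNA includes that of the keratinocytes, and which cells a transcript came from was not tested. The comparison shows whether the transcripts of these genes differed between SOX11-induced and control epidermis 12 h after induction.

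Cy3 marked the control on each array per the labels, although the study's methods mention swapped colours. For a single probe, dye and SOX11 therefore cannot be told apart. Both probes of Sox11 were below background in both channels of both arrays, and whether they lie within the transgene was not analysed here. Between 37.5% and 42.6% of spots were well above background in a channel, and the number of arrays limits the precision. In these bulk sheets, fewer cells of a type and less RNA per cell cannot be told apart.

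Langerhans cells are the antigen-presenting cells of the epidermis. They carry langerin, encoded by Cd207, and load peptides onto MHC class II molecules, which are pairs of an alpha and a beta chain assembled on the invariant chain Cd74 and loaded with the help of the H2-DM proteins. The mouse epidermis also holds T cells with a gamma delta receptor, which signal through the CD3 chains, while most macrophages and mast cells lie in the dermis below. Langerhans cell precursors seed the skin before birth, and they multiply and take on langerin and class II in the days after it. They depend on the receptor Csf1r, whose ligand Il34 is made by keratinocytes.

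The labels of the groups were checked first against the arrays. A gene was counted as above background when, on each array, 1 or both channels of its brightest probe passed the scanner software's background criterion, which held for 31 of the 43 members, 29 of them in every channel. Cd207, Cd3e, Ptprc and Csf1r, the markers that define Langerhans cells, T cells, leukocytes and cells that answer Csf1, were above background in every channel. Of the mast cell genes Cpa3, Mcpt4, Cma1 and Tpsb2, which encode granule proteases, Tpsb2 alone was counted. Cpa3 was above background in 1 of 4 channels and Mcpt4 and Cma1 in none, so the mast cell group rests on a single probe. Lyz1, Lyz2 and Cd163 were below background in every channel, as were Ccr7, Itgae and Cd53. C1qb, C1qc and Mrc1 were above background on the array of pair 2 alone. All 7 keratinocyte markers were above background.

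The value of a gene is what its probe, a stretch of 60 bases, caught. The probes of 3 members are shown, 1 from each of the groups with contrasting patterns in the results: a class II chain, the pan-leukocyte phosphatase CD45 and a complement chain. They lie on mm9 at chr17:34421285-34421344 (minus strand) for H2-Aa, at chr1:139961083-139961142 (minus strand) for Ptprc and at chr4:136452409-136452468 (minus strand) for C1qa. They are written 5′ to 3′ in the sense of the transcript.
H2-Aa: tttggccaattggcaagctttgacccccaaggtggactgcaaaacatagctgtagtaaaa
Ptprc: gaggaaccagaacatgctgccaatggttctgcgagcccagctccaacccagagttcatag
C1qa: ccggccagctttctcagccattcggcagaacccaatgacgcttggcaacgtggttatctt

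Class II genes are controlled as a set through promoter boxes held in common, among them the Y box, a CCAAT sequence on either strand. The promoters of H2-Aa, H2-Eb1 and H2-DMb1 are shown because these genes had log2 ratios of different sign on the arrays. Each run holds the 120 bases before the RefSeq start on GRCm38.p6, with CCAAT or its reverse complement ATTGG in capitals. They span chr17:34287824-34287943 (minus strand) for H2-Aa, chr17:34305747-34305866 (plus strand) for H2-Eb1 and chr17:34153071-34153190 (plus strand) for H2-DMb1.
H2-Aa: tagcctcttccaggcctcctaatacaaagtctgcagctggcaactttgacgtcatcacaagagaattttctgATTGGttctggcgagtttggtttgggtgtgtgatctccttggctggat
H2-Eb1: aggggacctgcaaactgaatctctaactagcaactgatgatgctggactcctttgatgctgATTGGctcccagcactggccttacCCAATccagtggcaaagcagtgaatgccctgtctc
H2-DMb1: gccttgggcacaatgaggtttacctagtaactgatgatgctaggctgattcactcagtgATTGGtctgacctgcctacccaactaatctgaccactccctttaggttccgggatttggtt
The ATTGG began at position -48 in H2-Aa, -59 in H2-Eb1 and -61 in H2-DMb1, counted from the start, and H2-Eb1 held a second match, CCAAT, at -35. Of the 43 members, 30 had an entry in the promoter table. These 30 genes had 34 promoters. In the 250 bases before the start, CCAAT on either strand was found in 12 of the 34, and in 33.8% of all 32851 promoters of the table. The 12 belonged to 12 genes. GAGGAAG, the core of sites for the myeloid factor PU.1, was found in 7 of the 34, from 6 genes, and in 10.6% of all promoters. The SOX-like letters AACAAAG and AACAATG were found in no member promoter, and in 5.03% and 3.29% of all promoters. These are matches of letters on either strand in a short window, and none of the 4 motifs contains another.

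No member passed the test, an adjusted p under 0.05 in the limma fit over all probes, in either direction. Of all 34820 gene names, 3.52% passed as higher and 1.78% as lower, and among the 16341 names above background 10.5% passed in either direction. A change past 1.5 on the log2 scale was called for 0.615% of all names and for 0 members. At an unadjusted p under 0.05 there were 7 of the 43 members (16.3%), 4 lower and 3 higher, beside 22.6% of all names. In this limma fit the 95% interval lay within a 2-fold change either way for all 31 members above background. These intervals lay between -0.85 and 0.97 on the log2 scale. The bound holds for this processing only. When arrays were centred on their median without the loess curve, the mean ratios of H2-Eb1 and Epcam were themselves more than 2-fold higher. So was that of Tpsb2 with the processed signals of the scanner software. With 2 pairs an exact sign-flip test cannot give a p under 0.5, so the intervals and adjusted p-values lean on the spread shared over all probes.

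The signs were uneven between groups. Over the 31 members the median log2 ratio was -0.13, with -0.27 in pair 1 and -0.05 in pair 2, beside 0.03 over all names above background. Of these members, 16 were lower in both pairs (51.6%, beside 34.2% of all names above background). Another 6 were higher in both, beside 40.2% of all such names, and 9 changed sign between the pairs. Fcgr3 and Tpsb2 were counted only through the SOX11-induced channel, and without them the 29 members above background in every channel had a median of -0.20, with 16 lower in both pairs, 4 higher in both and 9 of changing sign. The median was -0.26 for the Langerhans and class II genes, -0.26 for T cell genes and -0.20 for the pan-leukocyte genes. It was 0.06 for macrophage genes, and 0.03 without Fcgr3. The 7 keratinocyte markers, which are not leukocyte genes, had a median of -0.23, with 4 lower and 3 higher in both pairs. The medians of the member groups depended on how an array was centred. When the log2 ratios were centred on their median without the brightness-dependent loess curve, the median of all probes above background moved from 0.04 to 0.51, and the 31 members moved to 0.35, below that level still. With an offset of 50 or a trended prior, 4 or 5 members passed the test, as described gene by gene below. Of all 55676 probes, 2850 then passed as higher and 1555 as lower with the offset of 50, and 2906 and 1733 with the trended prior.

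**Figure D1:**
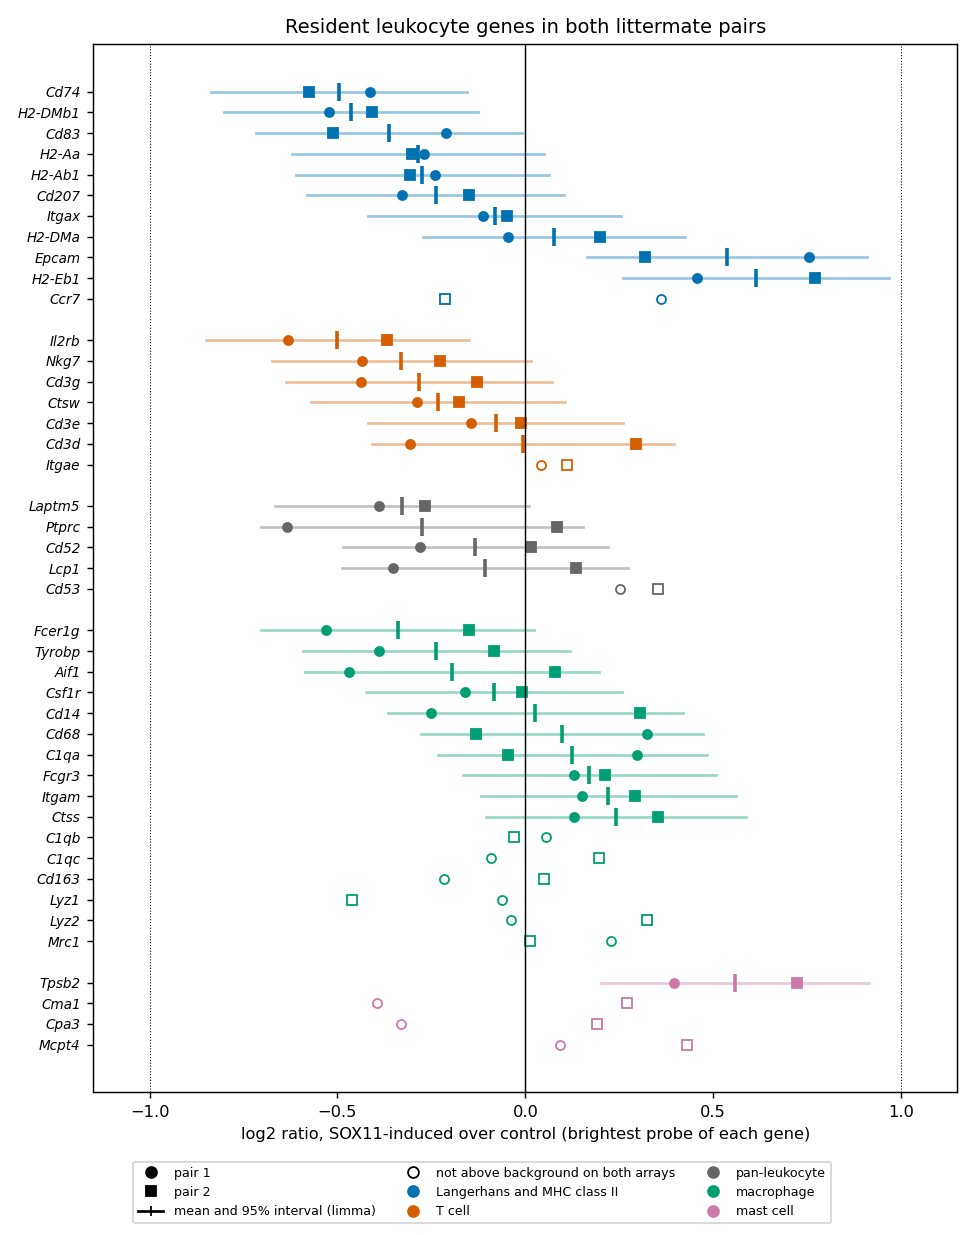
Log2 ratio of SOX11-induced over control epidermis for all 43 members, with pair 1 as circles and pair 2 as squares, the mean as a tick and the 95% interval of the limma fit as a line, and open marks for the 12 genes that were not above background on both arrays. Colours stand for the 5 groups, and every interval lies between the dotted lines at a 2-fold change.

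**Figure D2:**
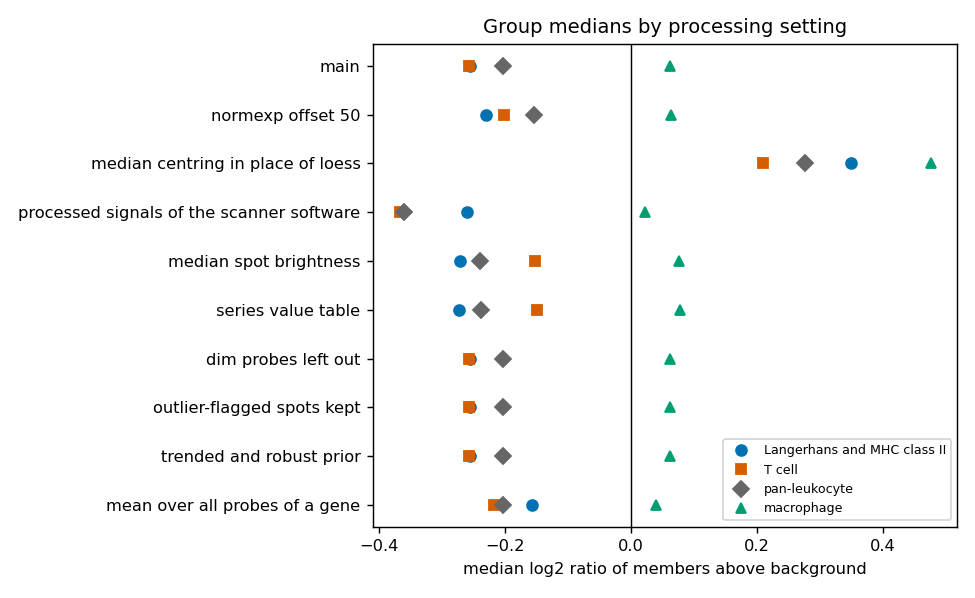
Median log2 ratio of the members above background in each of 4 groups (symbols) under 10 ways of processing the arrays. The class II, T cell and pan-leukocyte medians lie below 0 and the macrophage median above it in each setting except median centring, where all 4 lie above 0.

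Of the 10 Langerhans and class II genes above background, 7 had a log2 ratio below 0 in both pairs, 2 above 0 in both and 1 of either sign, and none passed the test. Among all names above background, 34.2% were lower and 40.2% higher in both pairs. Cd74, the invariant chain, had a normalised log2 brightness of 13.53 in the control and 13.12 in the SOX11-induced pup of pair 1, and of 11.96 and 11.38 in pair 2. The SOX11-induced pup was the lower in each pair, while both pups of pair 1 were above both pups of pair 2. The log2 ratio was -0.49 ± 0.12 (SD, n = 2; 95% interval -0.84 to -0.15), and the adjusted p of 0.103 did not pass. H2-DMb1, a chain of the peptide editor, went from 11.41 to 10.89 in pair 1 and from 9.94 to 9.54 in pair 2, a log2 ratio of -0.46 ± 0.08 (adjusted p = 0.120). A second probe of H2-DMb1 had the opposite sign, with fitted ratios of 0.47 and 0.48, but was below background in every channel. Both genes passed when the offset was 50 (adjusted p = 0.0176 for Cd74 and 0.0272 for H2-DMb1) and with a trended prior (0.00713 and 0.0258). With median centring they were at 0.20 and 0.16, above 0, and did not pass.

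H2-Aa, the alpha chain whose probe and promoter are printed above, had a ratio of -0.27 in pair 1 and -0.30 in pair 2. H2-Ab1, its beta chain partner, had -0.24 and -0.31, and an overlapping second probe -0.15 and -0.24. These values repeated closely between pairs, but the adjusted p was 0.310 for H2-Aa and 0.331 for H2-Ab1.

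H2-Eb1, the beta chain of the second class II molecule, had the opposite sign. Its log2 brightness was 8.76 in the control and 9.21 in the SOX11-induced pup of pair 1, and 7.73 and 8.51 in pair 2. It was thus the brighter in SOX11-induced epidermis in both pairs, and its ratio of 0.61 ± 0.22 (95% interval 0.26 to 0.97) was the highest of the 31 members. Its adjusted p of 0.0631 was also the lowest, and it passed with an offset of 50 (0.0128), with a trended prior (0.0132) and with median centring (0.000733). The difference between H2-Eb1 and the other chains was not tested. The second H2-DM chain, H2-DMa, was at -0.05 and 0.20.

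Among the other genes of this group, Cd207 itself was at -0.33 in pair 1 and -0.15 in pair 2, a mean of -0.24 ± 0.13 with an interval from -0.58 to 0.10 (adjusted p = 0.404). Langerin was thus within the spread that the fit allows. Cd83, a marker of maturing dendritic cells, was at -0.21 and -0.51 (adjusted p = 0.227), and Itgax, which encodes the integrin CD11c, at -0.11 and -0.05. Epcam, an adhesion protein of Langerhans cells and also of some keratinocytes, was at 0.76 and 0.32. It was the brighter in the SOX11-induced pup of both pairs, with a mean of 0.54 ± 0.31 and an adjusted p of 0.106. It passed with an offset of 50 (0.0294), a trended prior (0.0259) and median centring (0.000762).

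All 6 T cell genes above background were lower in pair 1, and 5 of them in pair 2. Of all 16341 names above background, 7592 were lower in pair 1 and 7766 in pair 2. The CD3 chains carry the signal of the T cell receptor. Cd3e had a log2 brightness of 8.72 and 8.58 in control and SOX11-induced epidermis of pair 1 and of 8.23 and 8.22 in pair 2. The pups of a pair could hardly be told apart, with a mean ratio of -0.08 ± 0.09 and an interval from -0.42 to 0.26. Cd3g was at -0.44 and -0.13 and Cd3d at -0.31 and 0.29, so that the 3 chains of one complex gave means from -0.28 to -0.01.

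Il2rb, a receptor chain for IL-2 and IL-15, had ratios of -0.63 and -0.37, a mean of -0.50 ± 0.19, the lowest of the 31 members (adjusted p = 0.107). Nkg7, a protein of cytotoxic granules, was at -0.43 and -0.23 with its brighter probe and at 0.06 and -0.21 with the other. Ctsw, a cathepsin of cytotoxic lymphocytes, was at -0.29 and -0.18. None of the 3 passed.

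The pan-leukocyte genes are common to all of these cells, and 3 of the 4 above background had a different sign in each pair. Ptprc, which encodes CD45, was at 7.12 in the control and 6.49 in the SOX11-induced pup of pair 1, and at 6.57 and 6.66 in pair 2. The ratio of -0.63 in pair 1 was thus met by 0.08 in pair 2, and the mean of -0.28 ± 0.51 had the widest spread of any member above background. Lcp1, an actin-bundling protein of leukocytes, was at -0.35 and 0.14, and the surface protein gene Cd52 at -0.28 and 0.02. Laptm5, a lysosomal protein of blood cells, was the only 1 of the 4 to be lower in both pairs, at -0.39 and -0.27 (adjusted p = 0.249), though its second probe was at -0.66 and 0.10.

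Genes of the macrophage group fell on both sides of 0, and their values do not stand for macrophages alone. Csf1r, Tyrobp and Fcer1g are held in common with other leukocytes, while Lyz1, Lyz2 and Cd163 were below background in every channel. Of the 10 genes of the group above background, 3 were lower in both pairs, 3 were higher in both and 4 changed sign. Fcgr3, among the higher ones, was counted only through the SOX11-induced channel, so its sign carries no weight. Without it, 3 were lower in both pairs, 2 were higher in both and 4 changed sign. Csf1r, the receptor for Csf1 and Il34, was the brightest of them, at 12.66 and 12.50 in control and SOX11-induced epidermis of pair 1 and at 11.21 and 11.20 in pair 2. Its 3 probes gave means of -0.08, 0.03 and 0.21, and the interval of the first ran from -0.42 to 0.26. The receptor-adaptor genes Fcer1g (-0.53 and -0.15) and Tyrobp (-0.39 and -0.08), which many leukocytes hold in common, were lower in both pairs with adjusted p of 0.267 and 0.427.

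Ctss, a lysosomal protease that trims the invariant chain, was at 0.13 and 0.35, and Itgam, which encodes the integrin CD11b, at 0.15 and 0.29. Fcgr3, an Fc receptor, had a control signal not well above background on both arrays, with fitted ratios of 0.13 and 0.21 (adjusted p = 0.558). C1qa, a chain of the complement starter C1q, was at 0.30 and -0.05, the lysosomal gene Cd68 at 0.32 and -0.13, the endotoxin co-receptor gene Cd14 at -0.25 and 0.31, and Aif1 at -0.47 and 0.08. These 4 changed sign between the pairs, and no macrophage gene had an adjusted p below 0.267.

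Tpsb2, a mast cell tryptase, was the single mast cell gene with a value. On both arrays its signal was above background in SOX11-induced epidermis and not in the control. It was counted only through the channel in which it was the brighter, so its sign carries no weight. The fitted ratios were 0.40 and 0.72 (adjusted p = 0.0840), and it passed with a trended prior (0.0449) and with median centring (0.00712). A second, dimmer probe of Tpsb2 was below background. Cpa3, the carboxypeptidase that defines mast cells, was at 6.06 and 5.73 in control and SOX11-induced epidermis of pair 1 and at 4.92 and 5.11 in pair 2, too dim for a fold. Of the 11 further genes of the mast cell pathway 9 were below background and none passed, beside 3.52% of all names as higher and 1.78% as lower.

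For Cd207 the difference between the pairs was larger than the difference within a pair. Cd207 was at 10.42 in the control and 10.09 in the SOX11-induced pup of pair 1, against 7.96 and 7.81 in pair 2. The control of pair 1 was 5.50-fold brighter than that of pair 2 and the SOX11-induced pup 4.87-fold. Of 14612 gene names above background in every channel, 0.944% differed as far between the control channels and 0.0342% between the SOX11-induced channels.

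The class II genes followed the same order. In the control channel pair 1 exceeded pair 2 by 1.57 on the log2 scale for Cd74, 1.68 for H2-Aa and for H2-Ab1, 1.51 for H2-DMa, 1.46 for H2-DMb1 and 1.03 for H2-Eb1. Csf1r, at 1.45, went with these genes. The median over the 10 Langerhans and class II genes was 1.49 in the control and 1.31 in the SOX11-induced channel, beside 0.04 and 0.03 over all names. Not every gene of this group shared the pattern. In the control channel Epcam went the other way (-0.33), and Cd83 (0.18) and Itgax (0.33) differed far less. The 6 T cell genes were also all brighter in pair 1, by medians of 0.54 and 0.35.

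The complement genes went the other way. C1qa was at 6.93 and 7.22 in pair 1 and at 8.12 and 8.07 in pair 2. Pair 1 minus pair 2 was -1.19 in the control and -0.85 in the SOX11-induced channel. C1qc and C1qb, which were above background in pair 2 alone, and Aif1 had the same order. For Aif1 the difference was -0.65 in the control and -1.20 in the SOX11-induced channel. The 2 channels had the same order in both patterns, though not always the same size of difference. Both channels of an array also read the same spots, so litter and array cannot be told apart here. No test was made between the pairs.

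**Figure D3:**
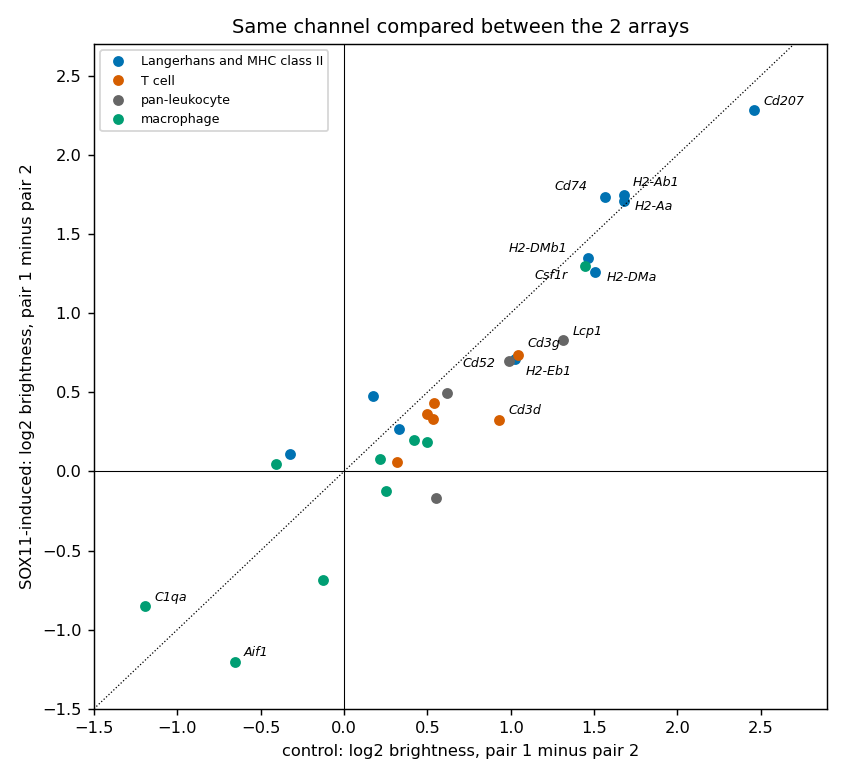
Normalised log2 brightness of pair 1 minus pair 2 in the control (horizontal axis) and in the SOX11-induced channel (vertical axis) for the 29 members above background in every channel, with the dotted line at equal differences and colours for the groups. Cd207 and the class II genes lie far to the upper right, near the line. C1qa and Aif1 lie at the lower left, with Aif1 farther from the line (-0.65 and -1.20).

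The signals that keep leukocytes in the epidermis come from keratinocytes and their neighbours, and 2 of the ligands fell. Il34, the Csf1r ligand made by keratinocytes, was at 12.63 in the control and 11.19 in the SOX11-induced pup of pair 1 and at 11.83 and 11.01 in pair 2. It was lower in both SOX11-induced pups than in both controls, with a ratio of -1.12 ± 0.43 (adjusted p = 0.00928). Csf1, the other ligand of Csf1r, had ratios of -1.19 and -0.98, a mean of -1.08 ± 0.15 (adjusted p = 0.00493), with its brightest probe, while its other 2 probes were below background. Csf1r itself did not pass, as given above. These calls depend on the centring: with median centring Il34 was at -0.46 and did not pass (adjusted p = 0.0810), Csf1 passed at -0.71 and Csf1r passed as higher, at 0.59 (adjusted p = 0.0183). With the processed signals of the scanner software no probe of the whole table passed.

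Of the 13 genes listed as such signals, 8 were above background, 2 passed as lower and 1 as higher. Of all names, 1.78% passed as lower and 3.52% as higher, and 10.5% of those above background passed in either direction. The list was chosen with earlier results of these data known, so its count is a description. The gene that passed as higher was Cd1d1, a molecule that presents lipids to T cells, with ratios of 3.50 and 3.67 (adjusted p = 1.69e-05). Il15, a cytokine that keeps epidermal T cells, was not well above background in the SOX11-induced channel, with fitted ratios of -0.36 and -0.69 (adjusted p = 0.102). It was counted only through the control channel, in which it was the brighter, so its sign carries no weight. Its receptor chain Il2rb, whose signal was dim, was the lowest member, without passing, and a link between the genes was not tested. Kitl, the growth factor of mast cells, was at 0.28 and 0.18, and Tgfb1 at 0.03 and -0.43. Skint7, of a family that epidermal T cells need, was at 0.56 and 0.60 with its brighter probe and at -0.70 and -0.05 with the other.

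**Figure D4:**
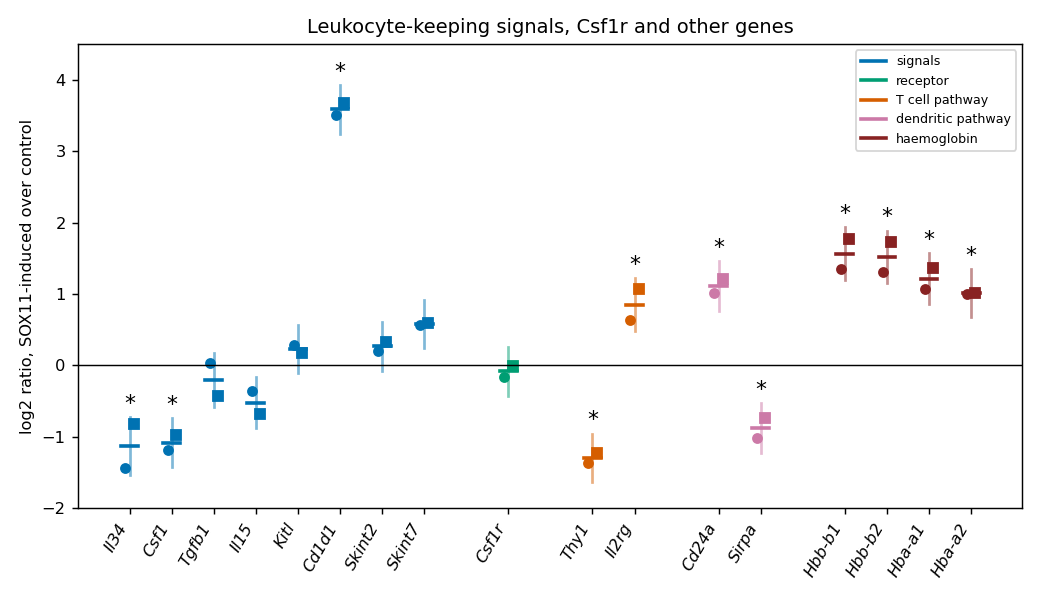
Log2 ratio of SOX11-induced over control epidermis in pair 1 (circles) and pair 2 (squares), with the mean as a bar, the 95% interval of the limma fit as a line and a star where the adjusted p was under 0.05. Il34 and Csf1 lie near -1, Cd1d1 above 3, and Csf1r at 0, with the pathway and haemoglobin genes described in the text to the right.

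Further genes of the same pathways are given beside the shares of all names that passed, 3.52% as higher and 1.78% as lower. Of 19 genes of the class II and Langerhans pathway with a probe, Cd24a rose by 1.11 ± 0.15 (adjusted p = 0.00431) and Sirpa fell by 0.88 (adjusted p = 0.0152), a call lost with median centring (-0.28, adjusted p = 0.219). Both encode surface proteins that dendritic cells share with other cells, and the remaining 17 did not pass with their brightest probe. Ciita, the activator of class II genes, was below background. Of 23 genes of the T cell receptor pathway, Thy1, which encodes the surface protein Thy-1 of T cells and of some other cells, fell by 1.29 with ratios of -1.37 and -1.22 (adjusted p = 0.00179). Il2rg, the common chain of the IL-2 and IL-15 receptors, rose by 0.85 (adjusted p = 0.0229), the opposite sign to Il2rb. None of 21 genes of the phagocyte pathway passed.

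Markers of other cells were measured beside these results. The 4 haemoglobin genes rose, by 1.56 for Hbb-b1, 1.52 for Hbb-b2, 1.21 for Hba-a1 and 1.01 for Hba-a2 (adjusted p from 0.00100 to 0.00611), and each was brighter in pair 1 than in pair 2 in both channels. Near-identical haemoglobin copies may share a signal. Of the other red blood cell genes, Alas2 and Slc4a1 were above background and did not pass, and Epb4.2 was below background. Of the neutrophil markers 4 of 10 were above background and none passed. Of the B cell markers 2 of 6 were above background and Blnk, which other cells also express, rose by 0.89 (adjusted p = 0.0125). Of the fibroblast markers Dcn fell by 0.79 (adjusted p = 0.0260), which did not pass with median centring (-0.24, adjusted p = 0.290), while the median of the 4 above background was -0.17 in pair 1 and 0.84 in pair 2. No keratinocyte, endothelial or melanocyte marker passed with its brightest probe. The part of blood, dermis or other cells in the values of the leukocyte genes was not tested.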

How the data were processed

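Total RNA of epidermal sheets was hybridised by the authors to 2-colour Agilent arrays. The intensity values that the authors deposited, per the file headers, are mean and median brightness of each spot and local background in scanner units, from Agilent Feature Extraction 10.7.3.1 with probe positions on mm9. The deposited series table holds log2 ratios, which match log2 ratios rebuilt here from median brightness (largest difference 0.00466). Columns with the scanner software's own log ratios and p-values were not used.

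In R 4.3.3 with limma 3.58.1, mean brightness was corrected with normexp (offset 16) and loess was fitted within arrays. Control spots and outlier-flagged spots (194 and 186) were dropped and spots of a probe averaged. An intercept-only model of the 2 log2 ratios was fitted to 55676 probes with eBayes and Benjamini-Hochberg adjustment. Each ratio is a littermate difference, so every fit is paired. Where brightness of a channel is given, arrays were scaled with Aquantile. The brightest probe stood for a gene. All members above background and the defining markers are named with values, and genes of other lists where they passed or a result turned on them. By accession, 50 of the 54 member probes matched RefSeq and all 50 kept their symbol. Promoters are from RefSeq (GRCm38.p6). The members and lists were chosen with earlier results of these data known. The scripts were tested on simulated data. Alternatives were another offset, median centring, processed signals, median brightness, the series table, filters, another prior, the mean over all probes of a gene and single pairs.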

Additional observations from a re-analysis of the deposited data

How the results depend on the processing

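Every fit was made on differences within littermate pairs, so no further block was added. No member passed the test with processed signals, median brightness, the series table, dim probes left out, outlier-flagged spots kept or the mean over all probes of a gene. There were 4 with an offset of 50 (Cd74 and H2-DMb1 lower, H2-Eb1 and Epcam higher), 5 with a trended and robust prior (these and Tpsb2, higher) and 12 with median centring, 1 lower and 11 higher. The 1 lower was Lyz1, which was below background in every channel. Of all 55676 probes, 2850 passed as higher and 1555 as lower with the offset of 50. The counts were 2906 and 1733 with that prior, and 12123 and 6362 with median centring. Under median centring Cd3e (0.46), Cd52 (0.47) and Csf1r (0.59) turned positive and passed, and 19 of the 31 signs changed. That setting keeps a trend with brightness that loess removes. Its medians were 0.35 for Langerhans and class II genes, 0.21 for T cell, 0.28 for pan-leukocyte and 0.48 for macrophage genes and 0.35 for all members.

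The Langerhans and class II median was -0.23 with an offset of 50, -0.26 with processed signals, -0.27 with median brightness and with the series table and -0.16 with the mean over all probes. The macrophage median was 0.021 with processed signals. The mast cell value, which is Tpsb2 alone, was 1.20 with processed signals and 0.24 with the mean over all probes. Over members above background in every channel, a setting chosen after seeing the data, the medians were -0.20 for all members and 0.027 for macrophage genes. The cause was not tested. With 1 pair left out the medians were -0.23 in either case for Langerhans and class II genes, -0.37 and -0.15 for T cell, -0.37 and 0.05 for pan-leukocyte, -0.015 and 0.035 for macrophage, 0.40 and 0.72 for mast cell and -0.27 and -0.05 for all members, with no test on 1 array. With processed signals no probe passed in the whole table (9764 at an unadjusted p under 0.05), so that Il34 and Csf1 did not pass there. Il34 also did not pass with median centring (-0.46, adjusted p = 0.0810), nor Csf1 with the mean over its 3 probes (-0.50, adjusted p = 0.0826), of which 2 are dim.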
